A study of Mus musculus with 10 samples.

Results

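Livers of mice fed 3,5-diethoxycarbonyl-1,4-dihydrocollidine (DDC), used as a model of primary sclerosing cholangitis (PSC), were set against livers of untreated mice. The comparison took 7 of the 10 livers of the series: mice 11, 13 and 14 of the PSC group and mice 1 to 4 of the control group, placed by the treatment in the labels. All were wild-type C57BL/6 mice, and all livers were taken on day 35. PSC mice received SAFE A04 chow holding 0.089% DDC by weight for 2 weeks, then regular chow for 1 week, then the DDC chow for 1 more week. Those courses add up to less than 35 days, and what the mice ate in the remaining days is not given in the labels. Control mice received neither an agent nor a special diet. The other 3 livers came from a model of primary biliary cholangitis (PBC). Those mice were injected into the abdomen with 100 µg of 2-octynoic acid coupled to bovine serum albumin in complete Freund's adjuvant, boosted in incomplete adjuvant on days 14 and 28, and given 2 µg of α-galactosylceramide by vein with the first 2 injections. The PBC livers served here to estimate the spread between animals and as a second comparison. Sex and age are not given in the labels; 4 Y-linked genes (Ddx3y, Uty, Kdm5d and Eif2s3y) had 0 reads in all 10 livers, and Xist ranged from 684 to 4762 normalised reads.

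DDC is a porphyrin-inducing compound. It lowers the activity of ferrochelatase, the last enzyme of heme synthesis, and porphyrin pigment plugs small bile ducts in the fed mouse. The surrounding tissue answers with a ductular reaction, a growth of duct-like epithelial cells, and with periductal scar. Hepatocytes around these ducts make most plasma proteins, urea, bile acids and the enzymes that clear foreign compounds. RNA was taken from whole liver, so a lower number of cells of a type and less RNA per cell cannot be told apart, and neither can a higher number and more RNA per cell.

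Values are normalised read counts per gene. Of 59408 gene models, 17757 had a value of 10 or more in at least 3 of the 7 livers and were tested, 14411 of them with a gene symbol. Between PSC and control livers, 1517 genes (8.54% of those tested) were higher and 1201 (6.76%) were lower at an adjusted p under 0.05, which is 15.3% in either direction (limma, Benjamini-Hochberg adjustment). The 3 PSC livers all lay above the 4 control livers for 2865 genes (16.1%) and all below them for 2833 (16.0%). The median log2 fold change over all genes tested was 0.05. Leaving out 1 liver at a time moved these counts. The genes higher numbered 788, 873 and 666 when PSC liver 11, 13 or 14 was left out. The genes lower numbered 525, 795 and 767 when control 1, 2 or 4 was left out, 491, 514 and 245 when PSC 11, 13 or 14 was, and 1909 when PBC liver 8 was. In all 10 such fits, 604 of the 1517 higher genes (39.8%) and 206 of the 1201 lower genes (17.2%) kept their call.

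Depth and transcript length differed between livers. Deposited totals ran from 38.3 M reads in control 3 to 95.4 M in PSC 11, and mitochondrial genes took 13.7% of reads in control 2 and 5.13% to 8.67% in the other 9. Among 10624 well-expressed genes, the median deviation from the control mean was compared between the longest and the shortest genes (top against bottom quartile of summed exon length). The difference on the log2 scale was -0.33, -0.54 and -0.73 in PSC livers 11, 13 and 14. It was 0.06, 0.43, -0.56 and 0.06 in controls 1 to 4, so that control 3 lay with the PSC livers, and -0.33, 0.52 and -0.33 in PBC livers 7 to 9. The median summed exon length was 3063 bases for genes called higher, 6444.5 bases for genes called lower and 4208 bases for all tested. With a trend on exon length removed from each liver, 1569 genes were higher and 1086 lower among 13995 genes with a known length, against 1503 and 1218 for the same genes without that step. The part that this trend has in single results was not tested, and where it moved the count of a list by over 1.5 times and by more than 1 gene, the count is given beside the list.

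**Figure D1:**
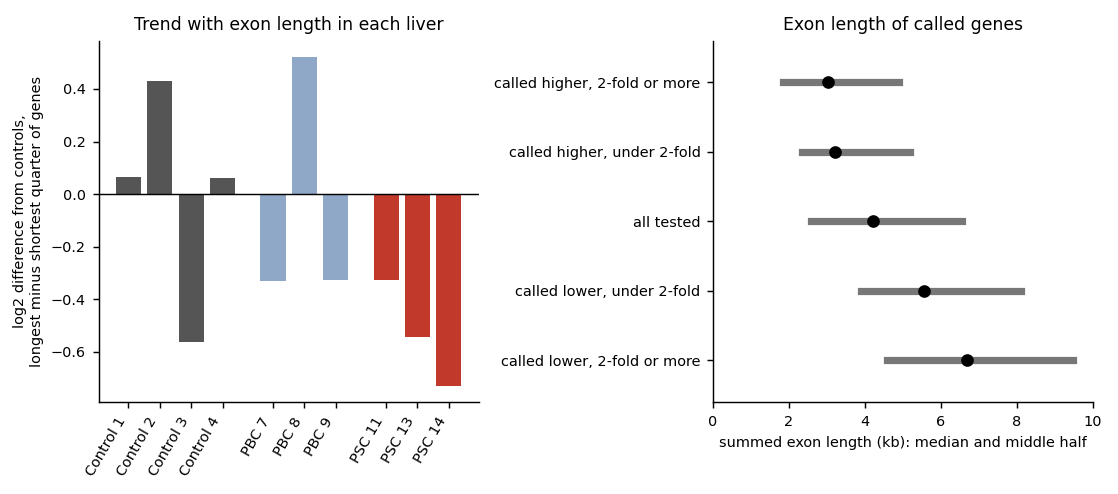
Bars, 1 per liver, give the median deviation from the control mean (log2 scale) of the longest genes minus that of the shortest. Longest and shortest are the top and bottom quartile of summed exon length. The bars of the 3 PSC livers, control 3 and PBC 7 and 9 are negative. Those of controls 1 and 4 are small, and those of control 2 and PBC 8 are positive. The other panel shows the median and quartiles of summed exon length (kb) for classes of called genes. The median is shorter for genes called higher than for genes called lower.

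Most called changes were of middle size. Of the 2718 called genes, 1482 (54.5%) changed between 2-fold and 4-fold, 777 up and 705 down, and 647 (23.8%) changed more than 4-fold, 459 up and 188 down. The remaining 589 (21.7%) changed by less than 2-fold, 281 up and 308 down. The size of a called change went with the level of the gene: the median value over the 7 livers was 70.1 for changes above 4-fold, 346 for 2-fold to 4-fold and 1412 for changes under 2-fold. Among 5878 genes with a mean under 100, where the median SE was 0.58 log2 units, 1 change under 2-fold was called; among the 4637 genes between 1000 and 10000, where it was 0.22, 138 higher and 160 lower ones were.

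**Figure D2:**
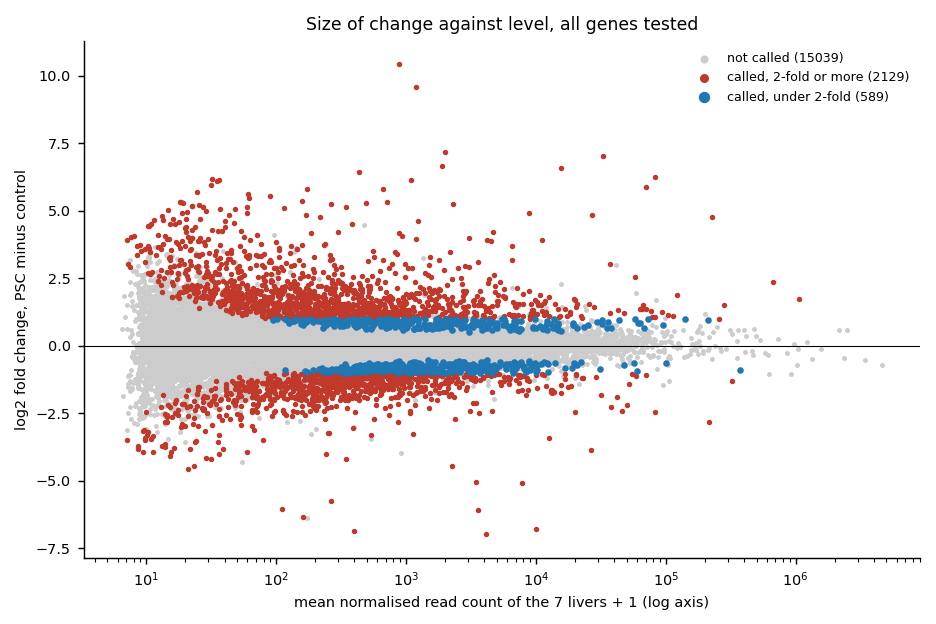
Log2 fold change between PSC and control livers (y axis) against mean normalised read count of the 7 livers (log axis, x axis), with 1 point per tested gene and called genes in colour. Called changes above 4-fold are mostly of genes at low levels, and changes under 2-fold are called almost only above a mean of 100.

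The largest increases were of epithelial, phagocyte and acute phase genes. Normalised counts of Sprr1a, a protein of the cornified envelope, were 2.59, 0, 0 and 0 in the control livers and 2171, 1076 and 2955 in the PSC livers. Those of Gpnmb, a glycoprotein of phagocytes, were 2.59, 2.57, 0 and 9.72 in the control livers and 3984, 1962 and 2352 in the PSC livers. Both genes were at or near 0 in every control, so their fitted log2 fold changes of 10.44 and 9.59 depend on the value of 1 added before the logarithm and are no measure of a fold (adjusted p = 2.0e-06 and 1.4e-06, limma). Duoxa2, the maturation factor of a dual oxidase, had 0 reads in all controls and a mean of 81.7 in PSC livers, which is at least 66.8-fold higher against a floor of 3 reads over the control group. Mmp12, the macrophage elastase, rose by 7.17 ± 0.39, and Lcn2, which binds bacterial iron carriers, by 7.05 ± 0.53. Then came Ubd, a ubiquitin-like modifier (6.66 ± 0.38), Ly6d (6.59 ± 0.49), the trypsin inhibitor Spink1 (6.45 ± 0.54), serum amyloid Saa2 (6.25 ± 0.51) and the metalloproteinase inhibitor Timp1 (6.14 ± 0.40). Single livers moved some of these log2 fold changes by over 1.5 times in linear terms: Gpnmb 9.00 without control 3 and Saa2 6.88 without PSC 13. With 8 added in place of 1 before the logarithm, that of Spink1 was 5.64.

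The largest decreases took in sulfotransferase, cytochrome P450 and major urinary protein genes. Normalised counts of Sult3a1 (chr10:33857722-33879475), a sulfotransferase, were 24834, 19743, 16259 and 9049 in the control livers and 105, 154 and 199 in the PSC livers, and its neighbour Sult3a2 fell by 6.87 ± 0.83. Mup19, of the major urinary proteins, fell by 6.98 ± 1.60. The other large decreases were of Serpina4-ps1, a pseudogene (-6.09 ± 1.34), the homeobox gene Cdx4 (-6.06 ± 0.85), Msmp (-5.77 ± 0.50), the cytochromes Cyp3a44 (-5.08 ± 0.66) and Cyp3a16 (-5.03 ± 1.14), the organic anion carrier Slco1a1 (-4.45 ± 1.12) and the receptor phosphatase Ptprt (-4.21 ± 0.75). Mup, Sult3a and Cyp3a genes have near-identical copies, and reads may have been split between them, so the value of any 1 copy is uncertain. Single livers moved some of these log2 fold changes by over 1.5 times in linear terms: Mup19 -7.85 without PSC 11, Mup19 -4.15 without PSC 13, Mup19 -8.94 without PSC 14, Sult3a2 -7.64 without PSC 11, Sult3a2 -5.64 without PSC 14, Serpina4-ps1 -5.08 without control 2, Serpina4-ps1 -7.50 without control 4, Cdx4 -7.19 without PSC 11, Cyp3a44 -5.75 without control 3, Cyp3a16 -4.39 without control 2, Cyp3a16 -6.49 without control 3, Cyp3a16 -4.32 without control 4, Slco1a1 -5.69 without control 4 and Ptprt -3.49 without PSC 14. The call of Slco1a1 was lost without control 1 or 2 or PSC 11, 13 or 14 (adjusted p = 0.0514 to 0.0782). Some of these values also depend on the 1 added before the logarithm. With 8 added in its place they were -3.91 for Cdx4, -2.50 for Ptprt, -5.47 for Sult3a2, -4.81 for Msmp and -5.96 for Mup19. In edgeR they were -4.54 for Mup19, -6.26 for Sult3a2, -7.77 for Serpina4-ps1, -6.33 for Cyp3a16 and -5.32 for Slco1a1.

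**Figure D3:**
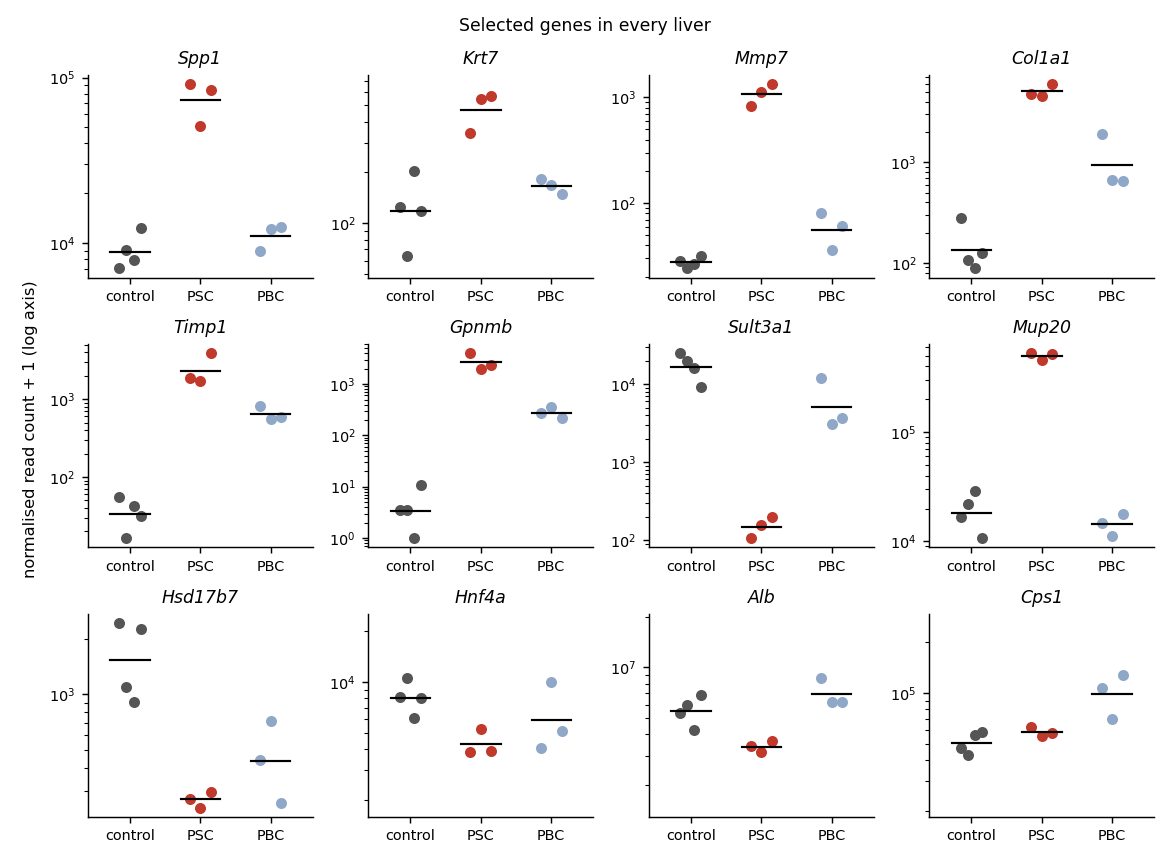
Normalised read count plus 1 (log axis, y axis) of 12 genes in each liver, by group (x axis); 1 point is 1 liver and the bar is the geometric mean of the group. For Spp1, Krt7, Mmp7, Col1a1, Timp1, Gpnmb and Mup20 all PSC livers lie above all others, for Sult3a1 all below, while the Cps1 values of PSC and control livers overlap.

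Genes of the bile duct epithelium rose. The list of cholangiocyte and ductular reaction genes has 33 members, of which 30 passed the filter; 18 rose, the median log2 fold change was 2.00 (0.05 over all genes), and the summed level of the list was 13807 to 20311 in controls and 68841 to 108640 in PSC livers. Normalised counts of Spp1 (chr5:104435111-104441053, mm10), which encodes osteopontin and is made by duct cells and by macrophages, were 7014, 9079, 7883 and 12348 in the control livers and 91721, 50963 and 83597 in the PSC livers. The groups did not overlap (log2 fold change 3.04 ± 0.25 SE, adjusted p = 9.9e-06). Krt7 (chr15:101412402-101430313), a keratin of duct cells, had counts of 124, 62.9, 204 and 117 in the control livers and 339.5, 540.2 and 565 in the PSC livers (log2 fold change 2.00 ± 0.35 SE, adjusted p = 0.0028), and Krt19, another duct keratin, had 234, 100.1, 225 and 205 in the control livers and 552, 977 and 896 in the PSC livers (log2 fold change 2.11 ± 0.33 SE, adjusted p = 0.0014). Sox9, the transcription factor of duct and progenitor cells, rose by 2.60 ± 0.29, with every PSC liver above every control. The matrilysin gene Mmp7 was at 27.2, 23.1, 25.6 and 30.5 in the control livers and 825, 1134 and 1348 in the PSC livers, low and even in controls and high in all 3 PSC livers (log2 fold change 5.30 ± 0.33 SE, adjusted p = 1.4e-06). Other members that rose were the tetraspanin Tspan8 (3.40), the epithelial transcription factor Elf3 (3.74) and the tight junction gene Cldn4 (3.77), with adjusted p of 1.6e-05, 3.5e-05 and 1.3e-04. Epcam, the surface antigen of duct epithelium, changed less (log2 fold change 1.50 ± 0.36 SE, adjusted p = 0.014), and its call was lost without PSC 13 or 14 (adjusted p = 0.0612 to 0.0849). Of the 30 members tested 12 were not called, 3 had a log2 fold change below 0, and 1 had all PSC livers below all controls. Limma called 0 lower with all livers, but 1 without control 2, PBC 7 or PBC 8. DESeq2 and a fit without the PBC group also called 1 lower, and array weights 2. With the exon length trend removed 1 was lower, Aqp1.

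Keratins 8 and 18, which hepatocytes and duct cells share and which build Mallory bodies, rose as well. In the list of simple keratins and Mallory body genes 9 of the 12 members tested (of 14) rose, with a median of 1.15; 5 did without PSC 11 and 5 without PSC 14. Krt8 had normalised counts of 12115, 11133, 9748 and 8112 in the control livers and 36973, 26112 and 36731 in the PSC livers, and Krt18 of 14628, 12608, 11138 and 8090 in the control livers and 34315, 27878 and 36998 in the PSC livers. Both sets of PSC values lay above the controls (1.69 and 1.53; adjusted p = 3.2e-04 and 0.0012). Tgm2, a transglutaminase that crosslinks keratins, rose by 1.74 ± 0.22, and the stress protein gene Nupr1 by 1.70 ± 0.32. Of 21 YAP, Notch and morphogen genes tested (of 25), 6 rose and 1 fell. Ankrd1, a YAP target, had a log2 fold change of 1.68, and its call was lost without control 1 or PSC 11, 13 or 14 (adjusted p = 0.0585 to 0.108) and with no filter (0.051). The receptor kinase Axl rose by 1.01 ± 0.21, and the Notch family gene Hes6 fell (log2 fold change -0.98 ± 0.28 SE, adjusted p = 0.035). Without 1 liver the higher count dropped to 2 (control 1), 1 (PSC 11), 2 (PSC 13) and 1 (PSC 14), and Hes6 lost its call without controls 3 and 4 and without each PSC liver.

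Scar matrix rose alongside. Of 31 fibrillar and interstitial matrix genes tested (of 35), 23 rose and 1 fell, the median log2 fold change was 1.51, and the summed level was 52229 to 72099 in controls and 139750 to 144960 in PSC livers. Col1a1 (chr11:94936224-94953040), the main collagen chain of scar, had normalised counts of 279.8, 105, 86.8 and 125 in the control livers and 4793, 4542 and 6053 in the PSC livers. Its PSC values lay close together and far above the controls, of which control 1 was the highest (log2 fold change 5.24 ± 0.42 SE, adjusted p = 7.4e-06). Its partner chain Col1a2 rose by 3.91 ± 0.25, Col3a1 by 3.93 ± 0.26, Col5a2 by 3.28 ± 0.24 and Col6a3 by 3.29 ± 0.26. The member that fell was Ogn, a small leucine-rich proteoglycan (log2 fold change -2.40 ± 0.76 SE, adjusted p = 0.05), and its call was lost without control 1, 3 or 4, PBC 7 or PSC 11, 13 or 14 (adjusted p = 0.0545 to 0.153) and with a pseudocount of 0.5 (0.0548), with no filter (0.0785), with TMM scaling (0.0501) and with equal totals (0.0713).

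The basement membrane, crosslinking and myofibroblast genes moved the same way. Of 18 basement membrane genes tested, 11 rose, 6 without PSC 13 and 6 without PSC 14; the chains Col4a1 and Col4a2 rose by 2.69 and 2.81 log2 units and the laminin chains Lama2 and Lamb1 by 2.16 and 1.41. Of 37 crosslinking and remodelling genes 18 rose. Timp1, which blocks collagen-degrading enzymes, had normalised counts of 54.4, 15.4, 40.9 and 30.5 in the control livers and 1902, 1706 and 3896 in the PSC livers, so that the lowest PSC value was far above the highest control. The gelatinase Mmp2 rose by 2.90 and the collagen-degrading cathepsin Ctsk by 2.92. Of 26 genes of myofibroblasts and activated stellate cells 14 rose and 1 fell (9 rose without PSC 11, 8 without PSC 13 and 8 without PSC 14). Acta2, the smooth muscle actin of myofibroblasts, was at 126, 139.9, 212 and 154 in the control livers and 839, 422 and 1177 in the PSC livers (log2 fold change 2.26 ± 0.37 SE, adjusted p = 0.0018). Lgals1, Vim and S100a6 rose by 2.03, 1.83 and 2.26. Tgfbr1, a receptor of TGF-β, fell (log2 fold change -1.89 ± 0.53 SE, adjusted p = 0.03), and its call was lost without control 1, 2 or 4 or PSC 11, 13 or 14 (adjusted p = 0.0539 to 0.107) and with equal totals (0.0564).

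Genes of the resting stellate cell went down in part. Of 20 such genes 5 fell, with a median of -0.52 and a summed level that overlapped between groups (39004 to 50814 in controls, 43454 to 47502 in PSC livers). The receptor gene Vipr1 fell by 2.31 ± 0.40; the growth factors Bmp10 (-3.57) and Bmp5 (-1.31) and the lectin Colec10 (-1.35) were also called. The call of Vipr1 held without any 1 liver. Calls were lost for Bmp10 without PSC 14 (adjusted p = 0.0524), Bmp5 without control 1 or 4 or PSC 11 or 14 (adjusted p = 0.0541 to 0.0955) and with equal totals (0.051) and Colec10 without PSC 14 (adjusted p = 0.0811). The log2 fold change of Bmp10 was -4.38 without PSC 13 and -2.48 without PSC 14, and -2.21 with a pseudocount of 8. The count of the list was 3 without control 1, control 4 or PSC 11, and 1 without PSC 14.

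**Figure D4:**
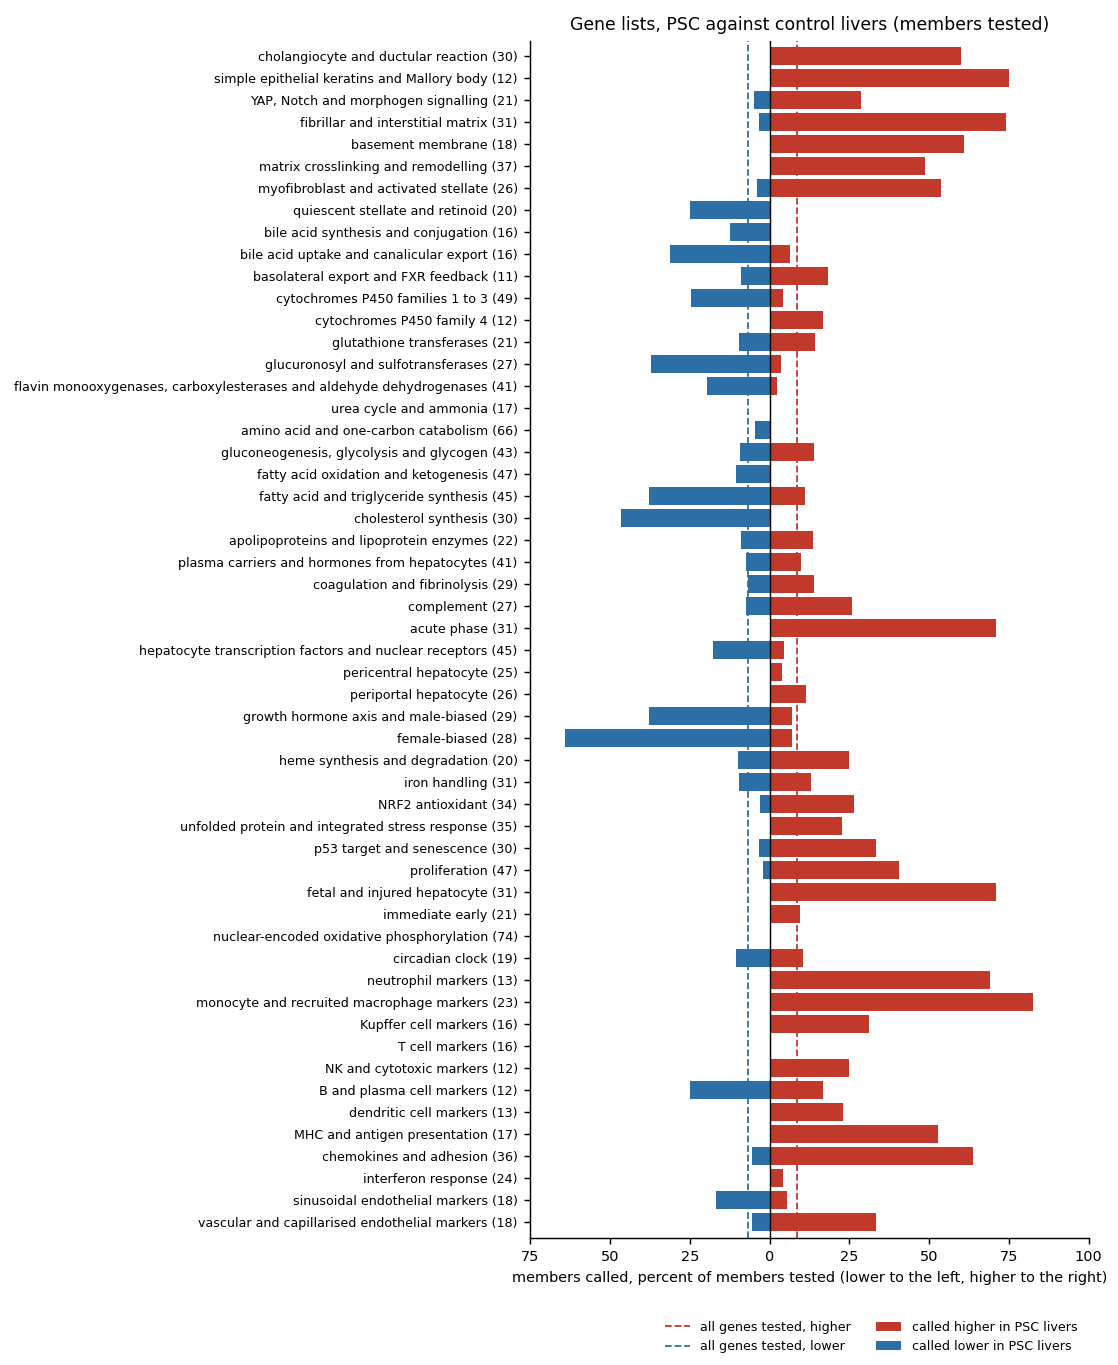
Share of each gene list called higher (bars to the right) or lower (bars to the left) in PSC against control livers, in percent of the members tested, whose number is in parentheses; dashed lines are the shares over all genes tested. Duct, matrix, acute phase and macrophage lists reach far beyond the dashed line on the right, and the cholesterol, female-biased and transferase lists on the left, while oxidative phosphorylation, urea cycle and T cell lists have no bar.

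Markers of blood-derived cells moved with these groups. Of 23 monocyte and recruited macrophage markers tested 19 rose (median 2.04), with a summed level of 136070 to 267650 in controls and 289770 to 406410 in PSC livers. Trem2, a lipid receptor of scar-associated macrophages, had normalised counts of 105, 86.0, 171 and 124 in the control livers and 2038, 1800 and 2154 in the PSC livers (log2 fold change 4.07 ± 0.29 SE, adjusted p = 3.9e-06). Of 13 neutrophil markers 9 rose (summed level 489 to 6698 in controls, 9815 to 19793 in PSC livers), but the count was 1, 2 and 1 when PSC 11, 13 or 14 was left out. The antimicrobial peptide gene Camp rose by 5.54 ± 0.74, and Prtn3 of neutrophil granules by 5.33. The granule genes Ltf and Mpo, also called higher, each had reads in 1 control only. Their counts were 5.18, 0, 0 and 0 in the control livers and 67.5, 30.7 and 80.5 in the PSC livers for Ltf, and 0, 0, 0 and 5.55 in the control livers and 44.1, 29.1 and 39.4 in the PSC livers for Mpo. Their fitted log2 fold changes of 5.16 and 4.57 are no measure of a fold, since with 8 added in place of 1 they were 2.81 and 2.30, and that of Camp was 4.04. Single livers moved some of these log2 fold changes by over 1.5 times in linear terms: Camp 4.86 without control 3 and Prtn3 4.68 without PSC 11. Of 16 Kupffer cell markers 5 rose (8 without PBC 8), among them the complement chains C1qa (1.25), C1qb (1.45) and C1qc (1.11). The log2 fold change was below 0 for 3 markers. In limma 2 markers were lower at an unadjusted p under 0.05, and 1 was called lower without PBC 8. For T cells, limma called 0 of 16 markers, 0 had an unadjusted p under 0.05, and edgeR and DESeq2 also called 0; the summed level was 845 to 1502 in controls and 944 to 1057 in PSC livers. Several duct and matrix genes (Spp1, Timp1, Lgals3) are also made by macrophages, and the part of these cells in the duct and matrix results was not tested.

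Chemokine and antigen presentation genes rose with them. Of 36 chemokine, cytokine and adhesion genes tested 23 rose and 2 fell, 14 rising without PSC 14. The monocyte attractants Ccl2 and Ccl7 rose by 3.97 ± 0.32 and 3.60 ± 0.35, lymphotoxin beta (Ltb) by 2.21 ± 0.26 and the adhesion molecule Vcam1 by 1.73 ± 0.19. Cxcl12 and Cxcl13 were lower (-1.06 ± 0.20 and -2.38 ± 0.70); the call of Cxcl13 was lost without control 1, 2, 3 or 4 or PSC 11, 13 or 14 (adjusted p = 0.0538 to 0.132) and with a pseudocount of 8 (0.0539), with no filter (0.0542), with equal totals (0.0636) and in edgeR (0.0734). Of 17 antigen presentation genes 9 rose, among them H2-Eb1 (2.15), H2-Aa (1.89), Cd74 (1.68) and H2-DMa (1.65).

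Calls among the most abundant transcripts depended on the tool. The 10 nuclear genes with a symbol and the highest control means were the plasma proteins Alb, Apoa1, Apoa2, Apoc1, Apoe, Trf, Ttr and Serpina3k, the fatty acid binding protein Fabp1 and the elongation factor Eef1a1. Limma called 0 of the 10, with 2 lower at an unadjusted p under 0.05. EdgeR called 3 lower, Alb (adjusted p = 0.0441), Ttr (0.0327) and Fabp1 (0.0473). DESeq2 called the same 3 and Serpina3k (0.0201) lower and Trf (0.0362) higher. Serpina3k had a log2 fold change of -1.04 and was lower in limma without control 4 (-1.69, adjusted p = 0.00569), which had a low count of it. Albumin (Alb) had normalised counts of 5380100, 5972900, 4248300 and 6807300 in the control livers and 3412400, 3134800 and 3645500 in the PSC livers. All 3 PSC values were below all controls, by log2 fold change -0.70 ± 0.37 SE, adjusted p = 0.219, and the difference did not pass the threshold in limma. Transthyretin (Ttr) stood at -0.71 (adjusted p = 0.111) and transferrin (Trf) at 0.59 (adjusted p = 0.249). Of 41 plasma carrier and hormone genes 4 rose and 3 fell, near the shares over all genes, with 7 rising without PBC 8 and 2 without PSC 14, and 1 falling without control 1 or PSC 11 and 0 without PSC 13 or PSC 14. With the exon length trend removed 6 fell, Alb and Ttr among them, and DESeq2 called 8 higher and 6 lower.

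Urea cycle, amino acid and mitochondrial genes stayed near the background in limma. Cps1, the entry enzyme of the urea cycle, had normalised counts of 46949, 42685, 56015 and 58442 in the control livers and 62568, 55604 and 57702 in the PSC livers; the groups overlapped (log2 fold change 0.21 ± 0.23 SE, adjusted p = 0.573). None of 17 urea cycle and ammonia genes was called by limma; 1 had an unadjusted p under 0.05 upward and 5 downward, edgeR called 0, and DESeq2 called 3 lower. Limma also called 3 of them lower without control 3, 1 without PBC 7 and 2 without PBC 8. Of 74 nuclear genes of oxidative phosphorylation limma called 0, with 1 unadjusted p under 0.05, and edgeR and DESeq2 called 1 each, lower. With the exon length trend removed 9 of them were lower, and the median moved from -0.04 to -0.26. Of 66 amino acid and one-carbon genes 3 fell, namely Kmo (-0.67), Mut (-0.71) and Dbt (-1.32), and 10 did with the length trend removed. That count was 1 without control 1 or control 4, 5 without control 3, 6 without PBC 8 and 0 with any 1 PSC liver left out.

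Some fatty acid oxidation genes fell. The summed level of the list was 2045800 to 2661700 in controls and 1269700 to 1957300 in PSC livers, with a median log2 fold change of -0.15. A sum is weighted toward abundant members, and the list includes Fabp1, named above among the genes with the highest control means. Fabp1 had a log2 fold change of -1.03 and was not called by limma with all livers (adjusted p = 0.0811). The part of Fabp1 in the sums was not tested, so they do not show a fall across the members. In limma 12 members were lower and 1 higher at an unadjusted p under 0.05. At the adjusted threshold 0 rose, and 6.76% of all genes tested were lower. Of 47 genes 5 fell: the peroxisomal transporter Abcd3 (log2 fold change -1.49 ± 0.27 SE, adjusted p = 0.0031), Acsl1 (-1.19), Acadsb (-1.28), Acot4 (-0.94) and Acot12. The call of Abcd3 held without any 1 liver, and that of Acsl1 was lost without PSC 14 (adjusted p = 0.0739). The count was 2 without PSC 11, 3 without PSC 13, 1 without PSC 14 and 9 with the length trend removed. Ppara, the receptor that drives this pathway, had log2 fold change -0.66 ± 0.27 SE, adjusted p = 0.11 and was not called. In sugar metabolism 6 of 43 genes rose and 4 fell, beside 8.54% and 6.76% of all genes tested. The muscle-type pyruvate kinase Pkm rose (log2 fold change 1.71 ± 0.21 SE, adjusted p = 2.9e-04), and the liver-type kinase Pklr fell (log2 fold change -1.56 ± 0.28 SE, adjusted p = 0.0031). The mitochondrial carboxykinase Pck2 rose by 1.30, and Ppp1r3b, which directs glycogen synthesis, fell by 1.15 ± 0.25. Without control 1 the counts were 3 and 2, and without PSC 14 they were 2 and 2; 7 fell without PBC 8, and 2 without PSC 11 or PSC 13.

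**Figure D5:**
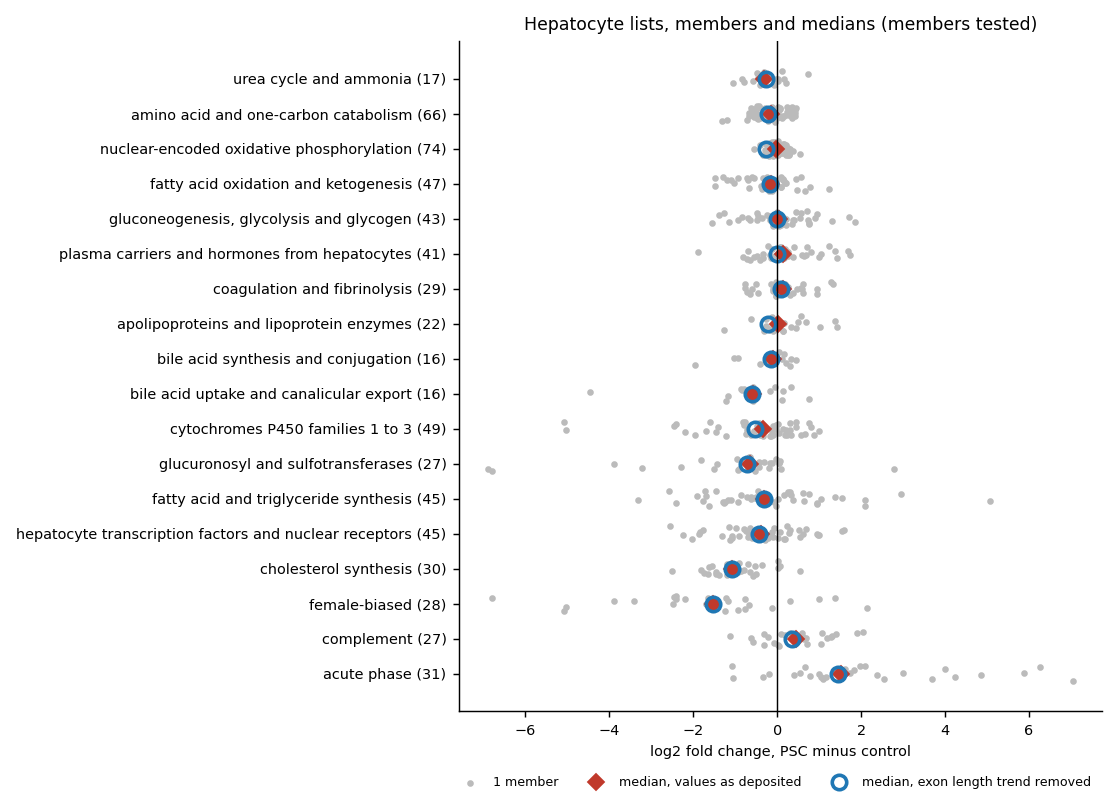
Log2 fold change between PSC and control livers (x axis) of every tested member of 18 hepatocyte lists (grey points; number tested in parentheses), with the list median from the values as deposited (diamond) and with the exon length trend removed (open circle). Medians lie near 0 for most metabolic lists, at -1.09 for cholesterol synthesis and -1.52 for female-biased genes, and at 1.53 for acute phase genes.

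Moderate changes, under 2-fold, took in 589 genes. Among those with a mean of at least 1000 and no overlap between groups, the clearest increases were of the collagen Col14a1 (0.98 ± 0.17), the adaptor Skap2 (0.96 ± 0.18), the lysosomal adaptor Plekhm2 (0.98 ± 0.19), Unc93b1, which carries Toll-like receptors to endosomes (0.99 ± 0.19), Eid1 (0.99 ± 0.20), Rilpl2 (0.95 ± 0.19), Sptlc2 of the first enzyme of sphingolipid synthesis (0.93 ± 0.19) and Itm2c (0.84 ± 0.18). The clearest decreases were of the carrier Slc22a30 (-0.99 ± 0.18), the lipid transporter gene Abca6 (-0.99 ± 0.21), the chromatin protein Dek (-0.98 ± 0.21), Pdha1 of pyruvate dehydrogenase (-0.93 ± 0.20), C2cd2 (-0.90 ± 0.19), Mfsd4b1 (-0.79 ± 0.17), the glucuronosyltransferase Ugt2b1 (-0.95 ± 0.20) and the phosphate carrier family gene Slc17a2 (-0.97 ± 0.21). As an example of their spread, Pdha1 had normalised counts of 4070, 3789, 4161 and 4282 in the control livers and 1819, 2373 and 2238 in the PSC livers, and Skap2 of 1372, 1296, 1423 and 1892 in the control livers and 2746, 2701 and 3223 in the PSC livers. Lack of overlap was a condition for naming these genes. For Pdha1 the gap between the groups was wider than the range of either group. Of these 16 genes, C2cd2, Mfsd4b1 and Dek lost the call without PSC 14 (adjusted p = 0.0665, 0.0529 and 0.0524), Slc17a2 without PSC 11 (0.0502) and Eid1 with the length trend removed (0.051).

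The number of moderate calls was the least stable of the counts. It was 142, 384 and 351 when control 1, 2 or 4 was left out, 1317 when PBC 8 was, and 92, 69 and 28 when PSC 11, 13 or 14 was. Of the 281 moderate increases 10 were called in every one of the 10 fits with 1 liver left out, and of the 308 moderate decreases 7 were. In simulated data of this design, with 17010 genes, 26.6% of 94 genes changed 2-fold and 75.5% of 98 genes changed 4-fold were called. The simulation changed 200 genes, far fewer than the 2718 called here, and held no change under 2-fold. It therefore does not give the share of changes that went uncalled here. With the exon length trend removed, 439 moderate increases and 440 moderate decreases were called, against 346 and 379 for the same genes without that step.

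Some genes of bile acid uptake fell. Of 16 genes of uptake and canalicular export 5 fell and 1 rose, and 10 had all PSC livers below all controls, which is true of 16.0% of all genes. The organic anion carriers Slco1b2 and Slco2b1 had log2 fold changes of -0.87 and -0.79, and the flippase Atp8b1 of -1.18; Abcb4, which exports phospholipid into bile, was the member that rose (0.76, adjusted p = 0.033), and its call was lost without control 1, 3 or 4 or PSC 11, 13 or 14 (adjusted p = 0.0562 to 0.134) and with no filter (0.0529). The main bile salt importer Slc10a1 had normalised counts of 57367, 50162, 47468 and 73349 in the control livers and 35776, 32628 and 36161 in the PSC livers. All PSC livers were below all controls, but the difference did not pass the threshold (log2 fold change -0.69 ± 0.25 SE, adjusted p = 0.075). Slc10a1 was called without PBC 8 (adjusted p = 0.0268), with equal totals (0.0456), in DESeq2 (0.0282), without the PBC group (0.035), with array weights (0.00162) and with the exon length trend removed (0.0117). The export pump Abcb11 did not pass either (log2 fold change -0.17 ± 0.28 SE, adjusted p = 0.724). When PSC 11, 13 or 14 was left out, 1, 3 and 0 members fell, and DESeq2 called 9 lower. Among the carriers, calls were lost for Slco1b2 without control 1 or PSC 11 or 14 (adjusted p = 0.0515 to 0.0858), Slco2b1 without PSC 14 (adjusted p = 0.0771) and Atp8b1 without PSC 11 or 14 (adjusted p = 0.0536 to 0.112).

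Few genes of bile acid synthesis were called, beside 8.54% higher and 6.76% lower over all genes tested. Cyp7a1, the rate-limiting enzyme, had normalised counts of 6240, 4470, 1701 and 15962 in the control livers and 3398, 1134 and 638 in the PSC livers. The controls spread widely, 1 PSC liver lay within their range and the other 2 below it, and the difference did not pass the threshold (log2 fold change -1.96 ± 0.67 SE, adjusted p = 0.066). It did without control 3 or PSC 11 (adjusted p = 0.0194 to 0.0411) and with array weights (0.000795), and the log2 fold change was -2.50 without control 3 and -2.62 without PSC 11. Cyp8b1, the 12-hydroxylase, stood at log2 fold change -0.41 ± 0.34 SE, adjusted p = 0.44. Of 16 genes 2 fell, Akr1d1 (-1.03) and Cyp39a1 (-0.92); the count was 0 without control 1, PSC 13 or PSC 14, and 1 without control 2, control 4 or PSC 11, and 0 with equal totals. Among 11 genes of basolateral export and FXR feedback, the exporters Abcc3 (log2 fold change 1.08 ± 0.16 SE, adjusted p = 0.0012) and Slc51b (log2 fold change 1.54 ± 0.42 SE, adjusted p = 0.029) rose and the FGF coreceptor Klb fell (log2 fold change -0.78 ± 0.19 SE, adjusted p = 0.017). Abcc3 kept its call in every alternative run. The call of Slc51b was lost without control 1 or 2 or PSC 11, 13 or 14 (adjusted p = 0.0619 to 0.125), and that of Klb was lost without control 1 or PSC 13 or 14 (adjusted p = 0.0515 to 0.0956). Abcc4 was at log2 fold change -0.42 ± 0.51 SE, adjusted p = 0.612.

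Among drug-metabolising enzymes the changes were uneven. Of 49 cytochromes P450 of families 1 to 3, 12 fell and 2 rose, with a median of -0.33. Over all genes tested the shares were 6.76% lower and 8.54% higher. Some of the genes that fell, Cyp2c40 and Cyp2c69 among them, are also in the list of female-biased genes below. Cyp3a11, the main inducible enzyme of its family, had normalised counts of 169540, 153700, 172970 and 221510 in the control livers and 345880, 320400 and 405730 in the PSC livers and rose (log2 fold change 1.00 ± 0.22 SE, adjusted p = 0.011); its call was lost without PSC 14 (adjusted p = 0.0731) and with no filter (0.0651). Cyp3a13 was also called higher (0.76), and its call was lost without control 1, 2 or 3 or PSC 11, 13 or 14 (adjusted p = 0.0547 to 0.141) and with no filter (0.0507) and with equal totals (0.0701). Cyp2e1 (log2 fold change -0.17 ± 0.27 SE, adjusted p = 0.704) and Cyp2b10 (log2 fold change 0.87 ± 0.43 SE, adjusted p = 0.194) were not called. Cyp2c40, Cyp2c69 and Cyp2c39 were lower, with log2 fold changes of -2.19 ± 0.31, -2.45 ± 0.40 and -1.45 ± 0.26. In family 4, 2 of 12 genes rose, Cyp4f18 (2.83 ± 0.28), which leukocytes express, and Cyp4f16 (1.37 ± 0.22). Members of these families have near-identical copies, so that single values are uncertain.

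Conjugating enzymes fell in part. Of 27 glucuronosyl and sulfotransferase genes tested (of 33), 10 fell and 1 rose, the median was -0.64, and the summed level was 431230 to 691400 in controls and 284370 to 350980 in PSC livers. Sult5a1 fell by 3.22 ± 0.53, and Sult2a1 fell by 3.88 ± 0.62. Without control 4 the log2 fold change of Sult2a1 was -3.22. Sult2b1, the cholesterol sulfotransferase of epithelia, was the member that rose (log2 fold change 2.78 ± 0.61 SE, adjusted p = 0.01), though not without PSC 14 (adjusted p = 0.0771). Of 41 flavin monooxygenase, esterase and aldehyde dehydrogenase genes 8 fell and 1 rose. Fmo2, a flavin monooxygenase, fell by 1.57 ± 0.32. Nnmt, the member that rose, stood at 1.08, and its call was lost without control 2, 3 or 4 or PSC 11, 13 or 14 (adjusted p = 0.0621 to 0.129) and with no filter (0.0563), in edgeR (0.0595), with array weights (0.102) and with the exon length trend removed (0.0783). The count of members that fell was 4 without control 1, control 2 or PSC 11, 5 without control 4, 3 without PSC 13 and 2 without PSC 14. Of 21 glutathione transferases 3 rose, among them Gsta1 (log2 fold change 4.63 ± 0.71 SE, adjusted p = 0.0013; 5.46 without control 4 and 3.81 in edgeR), and 2 fell, Gstt3 (-0.93) and Gstm4 (-0.74). Without control 4 the count rising was 6. The count falling was 0 without control 1, PSC 11 or PSC 13, 1 without PSC 14 and 4 with the exon length trend removed. Over all genes tested 8.54% were higher and 6.76% lower.

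Genes known to differ between male and female liver moved strongly, and in both lists mostly downward. Of 28 female-biased genes tested (of 29) 18 fell and 2 rose, the median was -1.52, and the summed level was 330030 to 713920 in controls and 112750 to 139990 in PSC livers. Besides Sult3a1 and Cyp3a44, the cytochromes Cyp2b13 and Cyp2b9 were lower (-1.69 ± 0.35 and -1.22 ± 0.26). Cyp2c40, Cyp2c69, Cyp3a16 and Fmo2, given above, are also among the members that fell. The falls of this list are therefore not separate from those of the enzyme families. The 2 that rose were Prom1 (log2 fold change 2.13 ± 0.46 SE, adjusted p = 0.0086), which duct cells also express, and the cell cycle inhibitor Cdkn2c (log2 fold change 0.99 ± 0.23 SE, adjusted p = 0.012); Prom1 lost its call without PSC 11 and Cdkn2c without PSC 14. Of 29 growth hormone axis and male-biased genes (of 34) 11 fell and 2 rose. The fatty acid elongase Elovl3 fell by 2.58 ± 0.39, Mup7 fell by 3.04 ± 0.66, and the steroid dehydrogenase Hsd3b5 fell by 4.20 ± 1.04. The call of Hsd3b5 was lost without PSC 11 or 13 (adjusted p = 0.0626 to 0.0633), and its log2 fold change was -3.54 without control 3 and -5.33 without control 4. The count was 6 without control 1 or control 2, 3 without PSC 11 or PSC 13 and 4 without PSC 14. The growth hormone receptor Ghr fell (log2 fold change -0.82 ± 0.22 SE, adjusted p = 0.026), and its call was lost without PSC 11, 13 or 14 (adjusted p = 0.0577 to 0.114) and with the exon length trend removed (0.184). Igf1, its main hormone product, was not called (log2 fold change -0.40 ± 0.25 SE, adjusted p = 0.315).

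Mup20 (chr4:62050237-62054143), a major urinary protein known as the male pheromone darcin, went the opposite way from most of these. Its normalised counts were 16556, 22177, 28738 and 10753 in the control livers and 525360, 457220 and 515430 in the PSC livers, and 14851, 11162 and 17669 in the PBC livers. The PSC livers lay close together, with a geometric mean 27.2-fold that of the controls (values + 1, log2 fold change 4.76 ± 0.29 SE, adjusted p = 1.4e-06), and at a log2 difference of 5.12 ± 0.31 SE, adjusted p = 3.5e-06 against the PBC livers. The complement gene C6 was the other male-biased gene that rose (log2 fold change 2.03 ± 0.21 SE, adjusted p = 6.4e-05). The Mup genes are near-identical, so reads may have been assigned to the wrong copy. Every PSC value of Mup20 lay above every value of the other 7 livers, and the control and PBC values overlapped.

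Genes of cholesterol synthesis fell in part. Of 30 genes of the sterol pathway and its regulators 14 fell, with a median of -1.09, against 6.76% of all genes. The summed level of the list overlapped between groups, at 325310 to 569700 in controls and 210220 to 327470 in PSC livers. Hsd17b7, which reduces a sterol ketone late in the pathway, had normalised counts of 2447, 1096, 915 and 2252 in the control livers and 270.1, 243 and 296 in the PSC livers, with all PSC livers below all controls (log2 fold change -2.51 ± 0.38 SE, adjusted p = 0.0012). Sc5d, the sterol desaturase, was at 20490, 12400, 18760 and 24585 in the control livers and 7159, 4047 and 5763 in the PSC livers (log2 fold change -1.75 ± 0.26 SE, adjusted p = 9.4e-04). Hmgcs1, the synthase at the entry of the pathway, was at 38815, 11527, 8872 and 16426 in the control livers and 6689, 3676 and 5474 in the PSC livers (log2 fold change -1.64 ± 0.42 SE, adjusted p = 0.02). Also lower were Stard4, a sterol carrier (-1.45), Sqle (-1.19) and the master regulator Srebf2 (-0.69). Leaving out single livers gave 8 (control 1), 8 (PSC 11), 4 (PSC 13) and 9 (PSC 14) lower genes. The calls of Hsd17b7, Sc5d and Stard4 held in all of these; that of Hmgcs1 was lost without PSC 13 or 14 (adjusted p = 0.07 to 0.0864), that of Sqle was lost without control 1, 2 or 4, PBC 9 or PSC 11, 13 or 14 (adjusted p = 0.0518 to 0.189) and with no filter (0.0568) and with the exon length trend removed (0.0678) and that of Srebf2 was lost without control 1, 2 or 4, PBC 7 or 9 or PSC 11, 13 or 14 (adjusted p = 0.0536 to 0.203) and with no filter (0.0646), with equal totals (0.104) and with the exon length trend removed (0.102).

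The promoters of these genes were searched for short motifs, 15 motifs in 7 sets of called genes, in the 250 bases before the gene start (RefSeq, GRCm38.p6, either strand). The CCAAT box, the letters to which NF-Y binds beside sterol elements, was found in 9 of the 10 called cholesterol genes with a promoter in the table (90%), against 37.5% of all 27025 promoters and 39.8% of those of tested genes. The sterol element TCACNCCAC was found in 1 of the 10, against 1.23%. A match is only a run of letters, and this motif was picked for display after the counts were seen. The windows of the genes described above are shown because they hold the match on the reverse strand; capitals mark it, and they lie at chr13:119690101-119690350 on the plus strand (Hmgcs1), chr1:169969206-169969455 on the minus strand (Hsd17b7) and chr9:42264301-42264550 on the minus strand (Sc5d).
Hmgcs1: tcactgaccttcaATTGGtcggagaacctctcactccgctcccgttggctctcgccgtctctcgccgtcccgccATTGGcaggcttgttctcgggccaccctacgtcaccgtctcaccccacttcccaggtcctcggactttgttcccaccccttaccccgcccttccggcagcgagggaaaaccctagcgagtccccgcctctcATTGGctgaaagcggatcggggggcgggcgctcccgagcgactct
Hsd17b7: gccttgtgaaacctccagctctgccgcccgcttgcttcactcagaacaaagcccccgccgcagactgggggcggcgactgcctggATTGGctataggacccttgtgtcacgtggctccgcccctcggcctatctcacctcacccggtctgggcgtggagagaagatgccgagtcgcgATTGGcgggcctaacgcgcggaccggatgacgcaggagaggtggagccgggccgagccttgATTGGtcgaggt
Sc5d: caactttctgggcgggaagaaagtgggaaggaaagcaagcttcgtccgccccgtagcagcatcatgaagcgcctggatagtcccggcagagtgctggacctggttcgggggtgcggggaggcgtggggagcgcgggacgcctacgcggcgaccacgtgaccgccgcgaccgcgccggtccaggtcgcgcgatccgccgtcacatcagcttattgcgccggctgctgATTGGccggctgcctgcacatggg
The windows of Hmgcs1 and Hsd17b7 held 3 matches each and that of Sc5d 1.

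Fatty acid and triglyceride synthesis fell in part. Of 45 genes 17 fell and 5 rose; the 17 became 10 without PSC 11, 9 without PSC 13 and 8 without PSC 14, and the 5 became 3 without PSC 13 or PSC 14. Pnpla3, a lipase regulated by feeding, had normalised counts of 251, 910.1, 1642 and 691 in the control livers and 94.7, 32.4 and 118 in the PSC livers (log2 fold change -3.30 ± 0.56 SE, adjusted p = 0.0022). Gpam, which starts triglyceride assembly, fell by 2.42 ± 0.39, and Acly, which makes acetyl-CoA for synthesis, fell by 1.70 ± 0.33. The fatty acid synthase Fasn fell by 1.17 ± 0.27, and the desaturase Scd1 fell by 1.90 ± 0.47; the call of Fasn was lost without PSC 13 or 14 (adjusted p = 0.0532 to 0.0666) and with the exon length trend removed (0.0719), and that of Scd1 was lost without PSC 13 or 14 (adjusted p = 0.0556 to 0.0945). Srebf1, their regulator, was not called (log2 fold change -0.46 ± 0.30 SE, adjusted p = 0.316). The 5 that rose, near the share over all genes, were the lipase Lpl (log2 fold change 2.95 ± 0.29 SE, adjusted p = 4.5e-05), the fatty acid carrier Cd36 (log2 fold change 1.54 ± 0.34 SE, adjusted p = 0.011), the desaturase Scd2 (2.09) and the droplet proteins Cidea (5.06) and Cidec (2.10); the call of Cidec was lost without control 1 or 4 or PSC 13 or 14 (adjusted p = 0.0593 to 0.161). The value of Cidea depends on the 1 added before the logarithm (3.04 with 8 added), and that of Scd2 was 2.68 without PSC 13. Lpl is also made by macrophages, whose markers rose as given above.

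Transcription factors that set hepatocyte identity fell in part. Of 45 factors and nuclear receptors 8 fell and 2 rose, with a median of -0.38, beside 6.76% lower and 8.54% higher over all genes tested. Hnf4a (chr2:163506857-163572907), the central hepatocyte regulator, had normalised counts of 8105, 10523, 6090 and 7993 in the control livers and 3828, 5257 and 3895 in the PSC livers. All PSC livers were below all controls (log2 fold change -0.91 ± 0.29 SE, adjusted p = 0.048), but the call was lost without control 1, 2 or 4, PBC 9 or PSC 11, 13 or 14 (adjusted p = 0.0555 to 0.174) and with a pseudocount of 0.5 (0.0505), with no filter (0.0646), with TMM scaling (0.0531), with equal totals (0.101) and in edgeR (0.0562). Esr1, the estrogen receptor, had 610.1, 426, 324 and 632 in the control livers and 162, 118 and 85.5 in the PSC livers (log2 fold change -2.02 ± 0.33 SE, adjusted p = 0.0019), and its call held without any 1 liver. The glucocorticoid receptor Nr3c1 had a log2 fold change of -1.83 ± 0.40, the thyroid hormone receptor Thrb of -2.24 ± 0.54 and the homeobox factor Hhex of -1.11 ± 0.25; each lost its call without PSC 14 (adjusted p = 0.0579, 0.0945 and 0.0763). Cebpb, a factor of the acute phase response, rose (log2 fold change 1.60 ± 0.29 SE, adjusted p = 0.0038), and so did Gata6 (0.99), whose call was lost without control 1, 2 or 3 or PSC 11, 13 or 14 (adjusted p = 0.0523 to 0.117) and with no filter (0.0508), with equal totals (0.0843) and in edgeR (0.0541). The count of factors that fell was 4 without control 1, control 2 or PSC 11, and 1 without PSC 14. For zonation genes the calls depended on the tool. Of 25 pericentral genes limma called 1 higher (0 without PSC 11, 2 without PBC 8, 3 without control 4), and Glul, the glutamine synthetase around central veins, was at log2 fold change -0.58 ± 0.24 SE, adjusted p = 0.128. Glul was called lower without control 3 (adjusted p = 0.0156) and with array weights (0.00591). Limma called 0 pericentral genes lower, with 7 lower at an unadjusted p under 0.05, but 7 without control 3, 1 without PBC 8 and 4 with the exon length trend removed (Cyp1a2, Notum, Lect2 and Rgn); edgeR called 1 lower and DESeq2 5. Of 26 periportal genes 3 rose, Spp1, Cdh1 (1.52) and the apolipoprotein Apoa4 (1.37), beside 8.54% of all genes tested. The call of Apoa4 was lost without control 1, 2, 3 or 4, PBC 9 or PSC 11, 13 or 14 (adjusted p = 0.0511 to 0.219). It was also lost with no filter (0.0619) and with the exon length trend removed (0.0613).

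Acute phase genes, many of them for proteins that hepatocytes secrete under inflammatory cytokines, mostly rose. Which cells made each RNA was not measured. Of 31 genes 22 rose, the median was 1.53, and the summed level was 1628900 to 2935700 in controls and 4338300 to 6214500 in PSC livers. Saa1, serum amyloid A, had normalised counts of 2794, 1502, 4447 and 1659 in the control livers and 225040, 60065 and 197800 in the PSC livers (log2 fold change 5.88 ± 0.48 SE, adjusted p = 9.4e-06). The orosomucoid Orm2 rose by 4.86 ± 0.40, haptoglobin (Hp) by 2.37 ± 0.25, hemopexin (Hpx), which binds free heme, by 1.74 ± 0.29 and ceruloplasmin (Cp) by 1.53 ± 0.25. Cd14, a receptor for bacterial lipopolysaccharide, rose by 4.23 ± 0.34. The metallothioneins Mt1 (log2 fold change 1.97 ± 0.68 SE, adjusted p = 0.067) and Mt2 (log2 fold change 3.00 ± 0.98 SE, adjusted p = 0.055) were not called with all livers. Mt1 was called without control 1 or 3 (adjusted p = 0.0425 to 0.0468), and Mt2 without control 1, 3 or 4 (adjusted p = 0.0148 to 0.0401), with a pseudocount of 8 (0.0473) and with array weights (0.0446). Without control 4 the log2 fold changes were 1.15 and 1.75. Saa1 and Saa2, and the Orm genes, are close copies whose reads may be shared. Without PSC 13 the log2 fold change of Saa1 was 6.48. Of 27 complement genes 7 rose and 2 fell, beside 8.54% higher and 6.76% lower over all genes tested. C9 of the membrane attack complex rose by 1.32 ± 0.22, C4b by 1.41 ± 0.24 and clusterin (Clu) by 1.89 ± 0.29; C1rl (-0.58) and Masp1 (-1.11) fell, and both lost the call with control 1, control 4 or any 1 PSC liver left out.

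In the same promoter search the letters TTCNNNGAA, the palindrome that STAT factors bind, were found in 3 of 16 called acute phase genes with a promoter (18.8%), against 8.13% of all promoters and 7.42% of those of tested genes. The 3 were Itih4, Socs3 and Steap4. The related letters TTNCNNGAA, which are not that palindrome and were also searched, were found in 8 of the 16 (50%), against 12.7% of all promoters. The palindrome was added to the search after the other counts were seen.

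Heme genes bear on the target of the compound. Fech, which encodes ferrochelatase, had normalised counts of 7948, 6998, 8399 and 11508 in the control livers and 4541, 5252 and 4818 in the PSC livers and was lower (log2 fold change -0.82 ± 0.23 SE, adjusted p = 0.03); its call was lost without control 1 or 4 or PSC 11, 13 or 14 (adjusted p = 0.0576 to 0.113) and with equal totals (0.0705) and with the exon length trend removed (0.195). Cpox, which acts earlier in the pathway, fell by 1.30 ± 0.27, though not without PSC 14 (adjusted p = 0.0502). Alas1, the rate-limiting enzyme in liver, was not called, with counts of 9027, 24092, 16423 and 33709 in the control livers and 11673, 22506 and 29860 in the PSC livers (log2 fold change 0.09 ± 0.40 SE, adjusted p = 0.899). Hmox1, which breaks heme down, rose (log2 fold change 1.46 ± 0.29 SE, adjusted p = 0.0057). Of 20 heme genes 5 rose and 2 fell; the 5 became 2 without control 1 or control 2, 3 without PSC 11 and 2 without PSC 13 or PSC 14, and the 2 became 1 with the exon length trend removed. Among 31 iron genes 4 rose (2 without PSC 14) and 3 fell (8 without PBC 8, 1 without PSC 14), with a median of -0.14. Over all genes tested 8.54% were higher and 6.76% lower. The transferrin receptor Tfrc fell by 2.22 ± 0.50 and Ireb2, which controls iron-responsive mRNAs, fell by 1.70 ± 0.32. Tfrc lost its call without PSC 14 (adjusted p = 0.0515). Hepcidin (Hamp) was not called (log2 fold change -0.19 ± 0.29 SE, adjusted p = 0.709).

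Stress genes rose in part. Of 34 NRF2 antioxidant genes tested 9 rose and 1 fell. Gpx2, a glutathione peroxidase of epithelia, had normalised counts of 2.59, 7.70, 10.2 and 15.3 in the control livers and 151, 129 and 173 in the PSC livers (log2 fold change 4.12 ± 0.53 SE, adjusted p = 3.4e-04), and Gpx3 and Cbr3 rose by 2.49 and 1.86; Me1 fell (log2 fold change -1.62 ± 0.38 SE, adjusted p = 0.013), not without PSC 11. Nqo1, a common marker of this pathway, was not called (log2 fold change -0.07 ± 0.26 SE, adjusted p = 0.874). Of 35 genes of the unfolded protein and integrated stress response 8 rose (5 without control 1, 4 without PSC 11, 2 without PSC 14), among them Ddit3 (1.38 ± 0.23) and Trib3 (2.17 ± 0.44). Of 30 p53 target and senescence genes 10 rose (6 without PSC 14) and Rrm2b fell (log2 fold change -1.28 ± 0.41 SE, adjusted p = 0.05), whose call was lost without control 1, 3 or 4, PBC 7 or PSC 11, 13 or 14 (adjusted p = 0.0563 to 0.152) and with a pseudocount of 0.5 (0.051), with no filter (0.0854), with equal totals (0.0818), in edgeR (0.0505) and with the exon length trend removed (0.0993); Phlda3 rose by 3.19 ± 0.25 and Gdf15 by 3.20 ± 0.58, and Cdkn1a, the best known target, was not called (log2 fold change 2.13 ± 0.90 SE, adjusted p = 0.127). Its log2 fold change was 2.87 without control 2 and 1.00 without control 4 and 1.12 in edgeR, and it was called without control 2 (adjusted p = 0.0415) and with array weights (0.0474).

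Of 47 proliferation genes 19 rose and 1 fell. Mki67, the marker of cycling cells, had normalised counts of 33.7, 33.4, 35.8 and 15.3 in the control livers and 253, 84.1 and 177 in the PSC livers (log2 fold change 2.43 ± 0.44 SE, adjusted p = 0.0036), and Cdk1 and Stmn1 rose by 1.86 ± 0.34 and 1.97 ± 0.30. Ccnd1, the cyclin of cell cycle entry, fell (log2 fold change -1.20 ± 0.31 SE, adjusted p = 0.023), and its call was lost without control 2 or 4 or PSC 14 (adjusted p = 0.0534 to 0.133) and with equal totals (0.0539). The 19 became 11 without control 1 or control 2, 9 without PSC 11 and 10 without PSC 14. Which cells were cycling was not measured. Of 31 fetal and injured hepatocyte genes tested (of 34) 22 rose, with a median of 1.94. They included Ly6d and Spink1 above, Cd63 (3.47 ± 0.36), Lgals3 (3.10 ± 0.22) and Mfge8 (2.91 ± 0.25), genes that macrophages also express.

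The PSC livers were also set against the PBC livers, a second injury model that shares no treatment with them. Against these 206 genes (1.16% of those tested) were higher in PSC livers and 181 (1.02%) were lower. Both comparisons use the same PSC livers. Leaving out single livers gave 40 to 289 higher and 45 to 226 lower genes. Among duct genes 11 of 30 were higher than in PBC livers, Mmp7 by a log2 difference of 4.27 ± 0.35 SE, adjusted p = 7.8e-05, Spp1 by a log2 difference of 2.72 ± 0.27 SE, adjusted p = 3.2e-04 and Cldn4 by a log2 difference of 3.98 ± 0.45 SE, adjusted p = 7.1e-04. Of the fibrillar matrix genes 10 of 31 were higher; Col1a1 had 1920, 668 and 649.6 in PBC livers (a log2 difference of 2.43 ± 0.45 SE, adjusted p = 0.013). For the acute phase list 1 gene was higher, and Saa1 and Orm2 did not differ past the threshold (a log2 difference of 1.60 ± 0.52 SE, adjusted p = 0.132 and a log2 difference of -0.32 ± 0.43 SE, adjusted p = 0.71). Of the female-biased genes 7 of 28 were lower than in PBC livers, Sult3a1 by a log2 difference of -5.11 ± 0.47 SE, adjusted p = 2.0e-04, and of the fatty acid and triglyceride synthesis genes 6 of 45, Pnpla3 by a log2 difference of -3.58 ± 0.60 SE, adjusted p = 0.0072. Cyp2b10, which PSC and control livers did not differ in past the threshold, was lower than in PBC livers (a log2 difference of -3.21 ± 0.46 SE, adjusted p = 0.0032). T cell markers (9 of 16) and neutrophil markers (5 of 13) were lower in PSC than in PBC livers, Mpo by a log2 difference of -4.69 ± 0.75 SE, adjusted p = 0.0065.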

How the data were processed

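Poly(A) RNA of 10 mouse livers was sequenced as paired reads of 75 bases with a stranded library kit, per the labels' protocols. The submitters' processing notes name the mm10 build and the tools STAR 2.4.0, DESeq2, FastQC, Picard and SAMtools. How reads were counted, and whether by strand, is not given in the sources read. The deposited signal is a read count for each gene model, which the authors scaled with DESeq2. All values (100%) were whole multiples of 1 step per liver, within a tolerance of 0.1 reads, so read counts could be recovered. Value columns left out for want of a sample numbered 0.

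Genes with a value of 10 or more in at least 3 of the 7 livers compared were tested with limma 3.58.1 (R 4.3.3) on log2(value + 1), with a trend of variance on level and all 10 livers in one fit. Adjusted p is by Benjamini and Hochberg over 17757 genes, at a threshold of 0.05. Residual degrees of freedom were 7. p-values measure the spread between mice. edgeR 4.0.16 on the recovered reads called 1452 genes higher and 1226 lower; DESeq2 1.42.0 was a further alternative. A list is described by its count and median, and no list test was made. The genes compared, the 59 lists and their members were chosen with earlier results of these data known.

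Named genes are the 10 largest called changes each way (groups without overlap, established symbol, and a mean of 50 or more where higher), the 8 changes each way under 2-fold with the smallest p (mean of at least 1000, no overlap), up to 4 members per list, called members against their list, a set named in advance and the 10 genes with the highest control mean. Hmgcs1, Sqle, Fasn, Srebf2, Srebf1, Scd1, Acly, Cldn4, Thrb, Hp, Orm2, Hsd3b5, Cyp2b9, Cyp2b13 and Cd63, and some others named only in counts, were added after their values were seen. Exon lengths came from the GENCODE annotation of GRCm38 and promoters from RefSeq. On simulated reads the test made 2 false calls in 17010 genes.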

Additional observations from a re-analysis of the deposited data

Results flagged for a closer look

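Within the 4 control livers, 323 sets of values of named genes were checked for 1 liver lying apart from the other 3, by the gap to the nearest liver as a share of the range. Chance flags about 1 set in 20, and 15 were found; the PSC group has too few livers for this check. Control 4 stood apart for 7 genes: Slco1a1 (159.7 against 4304 to 6374), Serpina3k (174400 against 1014000 to 1109000), C9 (19000 against 27950 to 29250), Mki67 (15.27 against 33.37 to 35.76), Cd36 (11030 against 3603 to 3873), Abcc4 (526.2 against 134.8 to 158.4) and Mpo (5.55 against 0). Control 3 was higher for Ltb (304 against 160.6 to 177.7), Klrd1 (263.1 against 102.3 to 113) and the pancreatic elastase Cela2a (408.7 against 136.1 to 148.9). Control 2 was lower for Krt19 (100.1 against 205.5 to 234.5) and Ear2 (319.6 against 517.9 to 551.8) and higher for Slc39a14 (4081 against 2887 to 3035). Control 1 was the only control with reads of Sprr1a (2.59 against 0) and Ltf (5.18 against 0). All values are normalised counts.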

How the results depend on the processing

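No paired analysis was possible because the control livers (1 to 4) and the PSC livers (11, 13 and 14) share no replicate number. Leaving out 1 liver gave 666 to 1912 genes higher, 245 to 1909 lower and 28 to 1317 moderate changes. List members were 190 to 346 higher (310 with all livers) and 55 to 185 lower (139). Genes differing from PBC livers were 40 to 289 higher and 45 to 226 lower. Genes without overlap numbered 3100 to 4040 above and 3005 to 3738 below, against 2865 and 2833 with all livers. Groups of fewer livers overlap less easily, so these last counts do not measure stability. Against 1201 lower and 589 moderate genes, equal totals gave 680 and 276, DESeq2 1944 and 1184, a fit without the PBC group 1862 and 1098, and no filter 357 moderate ones. Array quality weights gave 3927 higher, 3449 lower, 3898 moderate and 297 list members lower. Against PBC livers DESeq2 gave 623 higher and 557 lower, array weights 735 and 653, and equal totals 112 lower. The causes were not tested. Pseudocounts of 0.5 and 8, the stricter filter, TMM scaling and edgeR kept the counts against controls within 1.5 times. The removal of the exon length trend, and its comparison on the same genes, were chosen after seeing the data. Of 324 named genes, the log2 fold change moved by over 1.5 times in linear terms for 22 with a pseudocount of 8, 14 in edgeR, 29 with array weights and 0 with equal totals or TMM scaling. Of the counts of the 59 lists, 8 of members higher and 18 of members lower moved by over 1.5 times with equal totals, 7 and 21 in DESeq2, 31 and 36 with array weights and 4 and 17 with the exon length trend removed. No setting reversed the direction of a called result. Depth limits genes under a mean of 100, where the median SE was 0.58.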

Other observations

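Endothelial genes moved in opposite directions, beside 8.54% higher and 6.76% lower over all genes tested. Of 18 sinusoidal endothelial markers tested (of 20) 3 fell, the VEGF receptor Kdr (-1.87 ± 0.54), Ehd3 (-1.77 ± 0.41) and the nuclease Dnase1l3 (-1.29 ± 0.35), and the scavenger receptor Stab1 rose (0.86 ± 0.20). Without 1 liver the count falling ran from 0 to 3: it was 0 without PSC 11 and 1 without control 1, control 4 or PSC 13. Of 18 vascular and capillarised endothelial markers (of 19) 6 rose, among them Vcam1 and von Willebrand factor (Vwf, 1.34 ± 0.34), and Tek fell (-1.37 ± 0.32). The count rising was 1 without control 1, 3 without control 2, 2 without PSC 11 and 1 without PSC 13 or PSC 14, so it rested on single livers. Kdr lost its call without control 1, 2 or 4 or PSC 11, 13 or 14 (adjusted p = 0.0516 to 0.106). Dnase1l3 lost it without control 1 or 4 or PSC 11 or 13 (adjusted p = 0.0615 to 0.124). With equal totals both lost it (0.0626 and 0.0559). Calls were also lost for Vwf without control 1 or PSC 11, 13 or 14 (adjusted p = 0.0543 to 0.0759). So were those of Stab1 without PSC 11 or 14 (0.0502 to 0.0765) and of Ehd3 and Tek without PSC 11 (0.0603 and 0.0553).

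Among lymphoid and other cell markers the counts were small, beside 8.54% higher and 6.76% lower over all genes tested. B cell genes fell, among them Ms4a1 at -1.99 ± 0.52 and Blk at -2.33 ± 0.63, while the plasma cell genes Jchain (1.52 ± 0.44) and Derl3 (2.29 ± 0.63) were called higher, out of 12 tested (of 17); without 1 liver 0 to 4 were lower and 0 to 2 higher, with 0 lower without PSC 11 and 1 without control 1, and 0 higher without control 1, control 4, PSC 11 or PSC 14; 5 were lower with the exon length trend removed. The log2 fold change of Blk was -1.63 without PSC 11 and -3.05 without PSC 14, and that of Derl3 was 3.03 without PSC 13. Of 12 NK and cytotoxic markers 3 rose, led by the chemokine Ccl5 (1.27 ± 0.23), and 1 did without PSC 11 or PSC 14 or with the exon length trend removed. Of 13 dendritic cell markers 3 rose, Itgax (2.99 ± 0.38), Batf3 (1.41 ± 0.31) and Xcr1 (1.27 ± 0.37), with 5 without control 4 and 6 without PBC 8; the call of Xcr1 was lost without control 1 or 2 or PSC 11, 13 or 14 (adjusted p = 0.0663 to 0.145) and with no filter (0.0695) and with equal totals (0.0787). Of 4 mast cell, eosinophil and basophil markers tested (of 16) 3 rose, Siglecf (2.97 ± 0.58), Ear2 (1.43 ± 0.23) and Ccr3 (2.33 ± 0.71); the call of Ccr3 was lost without control 2, 3 or 4 or PSC 11, 13 or 14 (adjusted p = 0.052 to 0.16) and with no filter (0.0733), with equal totals (0.0626) and with array weights (0.0831). Of 24 interferon response genes 1 rose, Irf8 (0.90 ± 0.25; 2 with the exon length trend removed), and its call was lost without control 1 or 2 or PSC 11 or 14 (adjusted p = 0.0618 to 0.136) and with equal totals (0.0704). Of 9 erythroid genes 1 rose, Alas2 (1.19 ± 0.36), and its call was lost without control 1 or 2 or PSC 11, 13 or 14 (adjusted p = 0.0775 to 0.178) and with no filter (0.0502), with equal totals (0.0522) and in edgeR (0.0538); of 7 mesothelial genes 1 rose, Krt19, which duct cells share. Of 14 pancreatic acinar genes 2 passed the filter, and limma, edgeR and DESeq2 called neither.

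Beside each list of this paragraph stand the shares over all genes tested, 8.54% higher and 6.76% lower. Of 29 coagulation genes tested 4 rose and 2 fell. Without 1 liver 0 to 4 rose and 0 to 4 fell. They rose in 2 without control 1, 1 without PSC 11 and 0 without PSC 14, and fell in 0 with control 1 or any 1 PSC liver left out, 1 without control 3 and 4 without PBC 8. Of 22 apolipoprotein and lipoprotein genes 3 rose, led by the HDL receptor Scarb1 (1.02 ± 0.19), and 2 fell, Lipg and Mttp; 1 rose with any 1 PSC liver left out. Of 19 clock genes 2 rose, Bhlhe40 (0.80 ± 0.20) and Nfil3 (1.25 ± 0.36), and 2 fell, Per2 (-1.91 ± 0.55) and Clock (-1.71 ± 0.54), and 0 moved either way with any 1 PSC liver left out. Of 21 immediate early genes 2 rose, Ier3 (2.43 ± 0.26) and Fosl1, which had 0 reads in the controls and was at least 34.5-fold higher (floor of 3 reads over the group); 4 rose without control 3 and 1 with any 1 PSC liver left out. Among 9 metallothionein and zinc transporter genes the transporter Slc39a4 was called higher (0.88 ± 0.25) and Slc39a14 lower (-0.75 ± 0.21), and neither was called with any 1 PSC liver left out.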
